A study of Mus musculus with 12 samples.

Results

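The members described here are 30 genes of the 32494 listed, taken by a rule on gene symbols: the glutamate receptor subunits, with a few receptor partners. They were chosen with earlier results of these data known, and 2 further genes under the rule are not reported here. The 30 members take in 17 subunits of ionotropic receptors (Gria, Grik, Grid and Grin genes) and 7 metabotropic receptors (Grm genes). The other 6 are not glutamate receptor subunits: Grip1 and Grip2 are scaffold proteins that bind AMPA receptors, Neto1 and Neto2 are auxiliary subunits of kainate receptors, and Gabbr1 and Gabbr2 form the GABA-B receptor. Messenger RNA was sequenced from the hypothalamus of 12 male mice, each carrying floxed Smc3 and each given tamoxifen, with tissue taken 5 weeks later. An age of 8 weeks is also given, but not at which step, and every sample title, in both groups, carries the word control. Mice lacking the Camk2a-cre/ERT2 transgene were labelled WT (n = 7), and mice carrying it were labelled cKO (n = 5). The Camk2a promoter drives the tamoxifen-activated recombinase in excitatory neurons of the forebrain, so in whole tissue any change in those neurons is averaged with all other cells, and fewer cells of a type cannot be told apart from less RNA per cell.

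Fast excitatory signalling in the hypothalamus runs through ion channels that glutamate opens. AMPA receptors carry most of the rapid current, NMDA receptors pass calcium when glutamate and a co-agonist bind during depolarization, and kainate receptors act on both sides of the synapse. Metabotropic glutamate receptors couple to G proteins instead: group I drives calcium release after synaptic activity, while groups II and III mostly dampen transmitter release from nerve endings. In hypothalamic feeding circuits, NMDA receptors on neurons that promote eating are known to shape their firing, and GABA-B receptors act as slow inhibitory counterparts.

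Depth, recovered from the deposited values, was 17126005 to 24010001 reads in 11 libraries and 68744112 in WT 1. Smc3, the floxed gene and a core subunit of cohesin, went against the labels: it was at 81.6 ± 3.14 normalized CPM (a gene's reads scaled to a common library total; SD, n = 7) in WT and at 131 ± 10.3 CPM (SD, n = 5) in cKO libraries (exact permutation p-value 0.00126, the smallest that reassigning the labels can give). Every direction is therefore given for the libraries as labelled. Markers of the labelled tissue were present but uneven. Of 14 hypothalamic markers 13 had a mean of at least 1 CPM, Rax being the exception at 0.153 CPM, and their summed level ran from 141 to 780.4 CPM in WT and from 231 to 823 CPM in cKO libraries. All 9 markers of the adjoining thalamus were also present, at a summed 509.7 to 1077 CPM in WT and 302 to 624.8 CPM in cKO. Of the thalamic markers 3 (Prkcd, Rgs16 and Plekhg1) were lower in cKO past the limma threshold used below, and all 9 had lower values. Cortical and striatal markers summed to 97.8 to 143 CPM in WT and 98.7 to 142 CPM in cKO, with 0 of 10 past the threshold. Marker values are called higher or lower here by the difference of the group means of log2(CPM + 1), which for Avp and Mog has the opposite sign to the difference of the mean CPM. Of 6 neuronal markers Elavl4 and Stmn2 were higher in cKO past it, with 4 values higher and 2 lower in all. Of 13 tested hypothalamic markers Sim1 was, with 9 values higher and 4 lower, and of 2 oligodendrocyte precursor markers Pdgfra was, with both values higher, and the astrocyte, oligodendrocyte, microglia, endothelium and ependyma lists had 0 calls. Their values were higher in cKO for 4 of 5 astrocyte, 4 of 5 oligodendrocyte, 5 of 5 microglia, 3 of 3 endothelium and 2 of 2 ependyma markers, and the part of these cell types in the results was not tested.

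Set against exon length, members differed widely in level. Levels between genes are compared here as WT means of CPM per kb of exon, with exon lengths from the GENCODE M21 annotation, which may not be the annotation the authors counted on. Gabbr1, the subunit that binds GABA, was highest at 140.0 ± 6.61 (SD, n = 7) CPM per kb, ahead of Gria1 at 79.5 ± 7.01 and Gabbr2 at 62.5 ± 5.57. Grik5, a high-affinity kainate subunit, stood at 42.0 ± 4.17, above Gria2 at 30.3 ± 2.37 and Grin1, the subunit every NMDA receptor needs, at 29.6 ± 0.679. Per kb, Gria2 and Grin1 did not differ by more than their spread. Without division by length, WT means were 217 CPM for Grik5, 471 CPM for Gria2 and 287 CPM for Grin1. The place of Grik5 above the other genes thus rests on the lengths used (5.168, 15.548 and 9.7 kb). Among the metabotropic receptors Grm5, Grm4 and Grm7 lay close together at 15.6 ± 1.87, 15.03 ± 2.16 and 14.8 ± 1.04 CPM per kb, differing by less than their spread. Grm6, the receptor of retinal bipolar cells, had 0 to 2 reads in every library, under the floor of 3 reads (0.0436 to 0.178 CPM), and was not tested. Grin3b was the next lowest at 0.554 ± 0.133 CPM per kb.

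**Figure D1:**
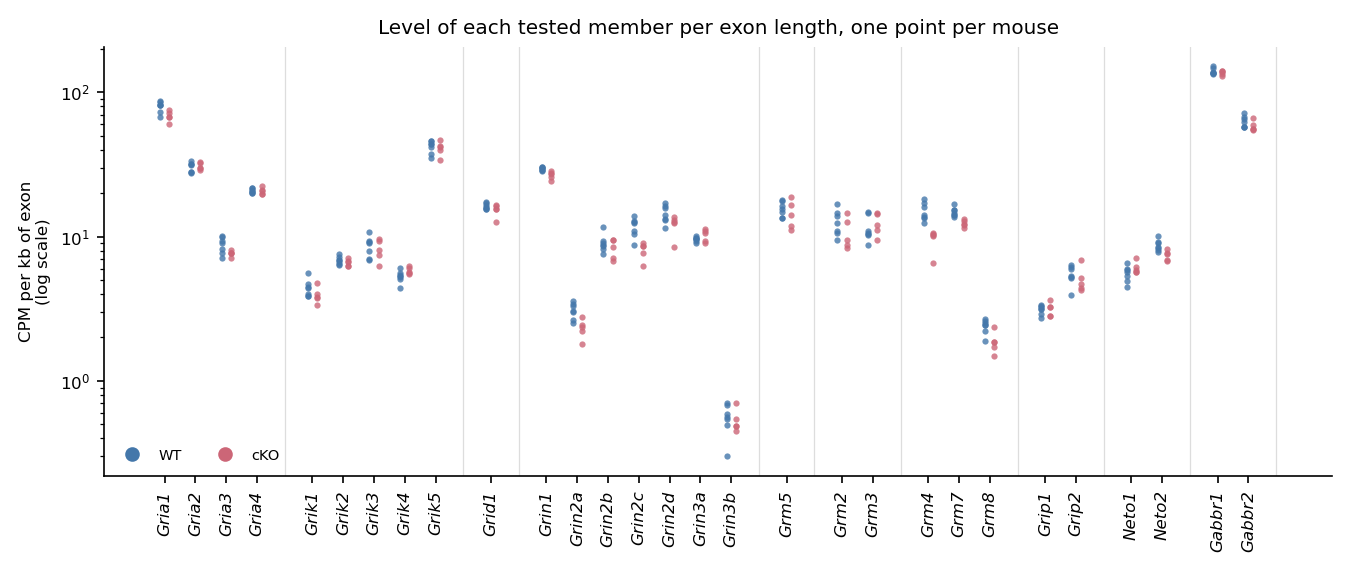
Level of each of the 29 tested members in CPM per kb of exon (log axis), by receptor family, with 1 point per mouse (blue, WT; red, cKO). Gabbr1 and Gria1 sit at the top, Grin3b at the bottom, and the 2 groups overlap for most genes.

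Which members differed with the genotype label was asked by limma on log2(CPM + 1) over all genes averaging 1 CPM or more, and 29 of the 30 members were among them. Past an adjusted p-value of 0.05, 7 members fell and 0 rose in the libraries labelled cKO. The 7 were Grm4, Grin2c, Grin2a, Grm8, Grm7, Neto2 and Grin1, in order of the size of the fall, from -0.65 to -0.15 on the log2 scale. They make up 24.1% of the tested members, where 7.60% of all 15359 tested genes were called lower, 6.54% higher and 14.1% in either direction. For the 0 members called higher, edgeR's quasi-likelihood test and DESeq2 also gave 0, limma gave 1 (Grik4) at an unadjusted p-value under 0.05, and limma after the correction for GC content and length gave 2 (Grik4 and Grin3a). Values were lower in cKO for 23 of the 29 members, against 47.5% of all tested genes, and the median log2 difference was -0.10 against 0.01 over all tested genes (-0.05 against 0.03 after the correction for GC content and length). In 3 members, Grm4, Grm7 and Grin1, every cKO library was below every WT library, which held for 3.20% of tested genes. The reverse, every cKO library above every WT library, held for 0 members and 3.52% of tested genes. The count of members that fell was 0 with a thalamus marker score as a covariate and 4 without cKO 8 or without cKO 9. Of all genes called, 46.2% were higher, against 56.6% after median centring and 61.0% after the GC and length correction described further on.

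**Figure D2:**
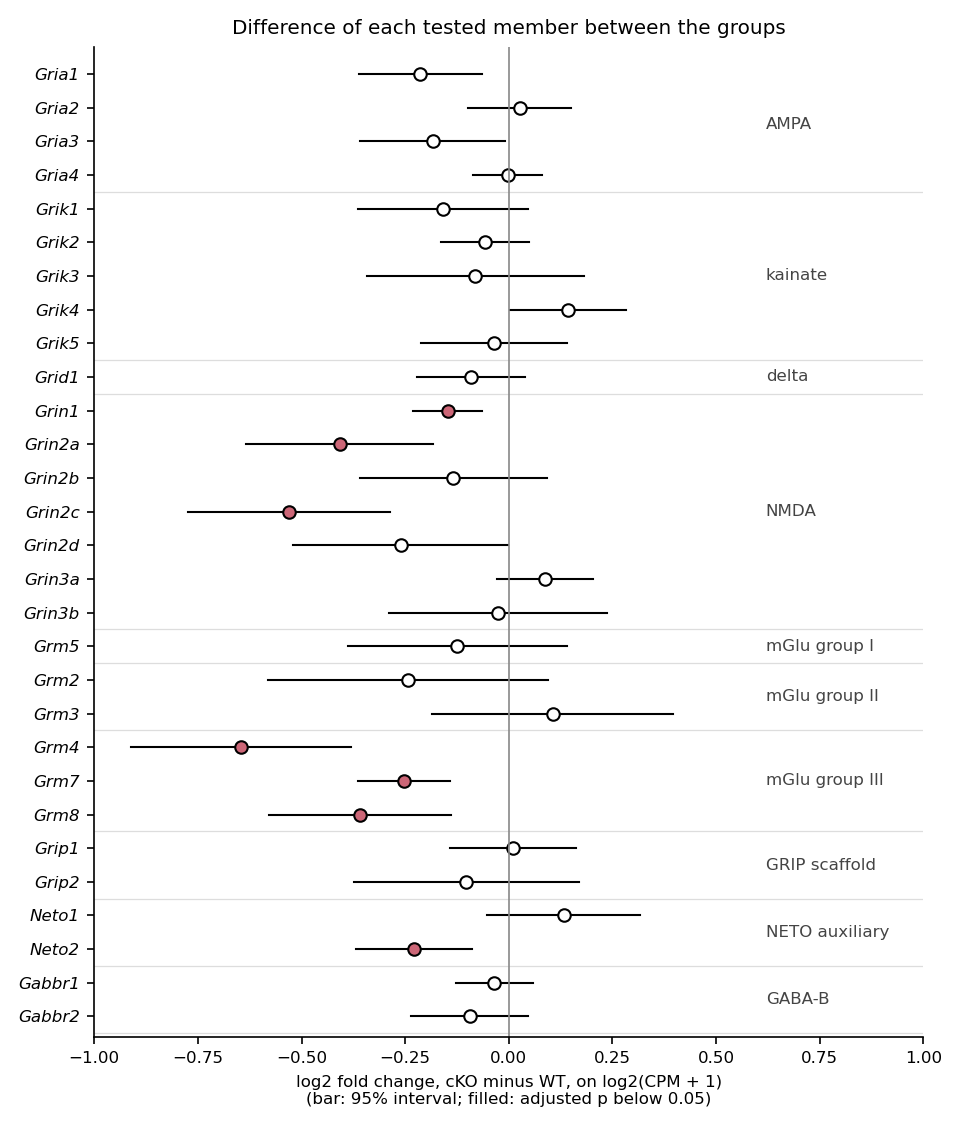
Difference of each tested member between the groups (x axis, log2 fold change of cKO minus WT on log2(CPM + 1)), grouped by family, with 95% intervals. Filled points are the 7 members past the limma threshold, 3 of them NMDA subunits and 3 group III metabotropic receptors, all to the left of 0.

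The metabotropic receptors held the largest fall. Grm4, a group III receptor found on nerve endings, was at 74.6 (lowest), 84.3 (median) and 109.5 CPM (highest) in WT, and the cKO mice were at 39.2, 60.7, 61.3, 62.8 and 63.1 CPM. Every cKO mouse was below every WT mouse, and cKO 8 lay far below the other 4. The mean fell by 36.1%, or -0.65 in log2 units (limma, SE 0.12, adjusted p-value 0.00733). Grm7, the most widely expressed group III receptor of the brain, ran from 80.9 through a median of 85.8 to 98.9 CPM in WT and was at 67.9, 70.9, 72.3, 75.9 and 77.5 CPM in cKO mice. The groups again did not overlap, although the fall was smaller, at -0.25 (SE 0.05, limma adjusted p-value 0.00936). Both calls held whichever of the 12 mice was left out.

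Grm8, the remaining group III receptor that was tested, overlapped between groups. It was at 18.8, 24.2 and 26.4 CPM (lowest, median and highest) in WT and at 14.7, 17.0, 18.3, 18.3 and 23.4 CPM in cKO mice. The lowest WT mouse, WT 6, lay among the cKO values, and cKO 12 lay among the WT values. The log2 fold change was -0.36 (SE 0.10, limma adjusted p-value 0.0335). With 1 mouse left out it stayed past the threshold in 3 of 12 fits, and not without WT 1, 4, 5, 11 or 15 or cKO 8, 9, 13 or 14, with adjusted p-values from 0.0502 to 0.0730.

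Grm5, which sits mainly on the receiving side of the synapse, was not called. It had a log2 difference of -0.12, with a 95% interval from -0.39 to 0.14, and its cKO mice spread from 113 to 193 CPM, wider than WT on both sides. The group II receptors Grm2 and Grm3 were not called either, at -0.24 (interval -0.58 to 0.10) and 0.11 (interval -0.19 to 0.40).

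The NMDA receptor genes held 3 of the 7 calls among 7 tested (42.9%, against 7.60% of all tested genes called lower), a count over few genes. Grin2c, a subunit that gives channels only weakly blocked by magnesium, was at 43.8, 62.9 and 70.3 CPM (lowest, median and highest) in WT and at 31.4, 38.8, 43.1, 43.3 and 45.4 CPM in cKO mice. Only WT 15 reached down into the cKO range, and the other 6 WT mice were above every cKO mouse. The mean fell by 31.5%, or -0.53 in log2 units (limma, SE 0.11, adjusted p-value 0.0111), which held in all 12 fits that left out 1 mouse. Grin2a, the subunit that replaces Grin2b at many synapses as the brain matures, was at 45.0, 54.4 and 64.3 CPM in WT and at 32.2, 39.7, 42.1, 43.5 and 49.4 CPM in cKO mice. Here 4 of the 5 cKO mice were below the lowest WT mouse, and cKO 13 was not. The log2 fold change was -0.41 (SE 0.10, limma adjusted p-value 0.0234), and the adjusted p-value was 0.0503 without cKO 9.

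Grin1 showed a small fall with little spread. It was at 278, 289 and 294 CPM (lowest, median and highest) in WT and at 237, 252, 263, 268 and 275 CPM in cKO mice, with no overlap. The mean fell by 9.63%, or -0.15 in log2 units (limma, SE 0.04, adjusted p-value 0.0250). The call was lost without cKO 8 (adjusted p-value 0.0540), and once each library had been adjusted for the GC content and exon length of its genes, the difference was -0.014 (adjusted p-value 0.807). The other 4 NMDA genes were not called. Grin2d, a subunit of interneurons and the ventral brain, had a difference of -0.26 (interval -0.52 to -0.0017), Grin2b one of -0.13 (interval -0.36 to 0.09), Grin3b one of -0.03 (interval -0.29 to 0.24) and Grin3a one of 0.09 (interval -0.03 to 0.20). With 24 to 113 reads per library, Grin3b was the least precisely measured of them, and its sign flipped under quantile normalization (0.056).

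**Figure D3:**
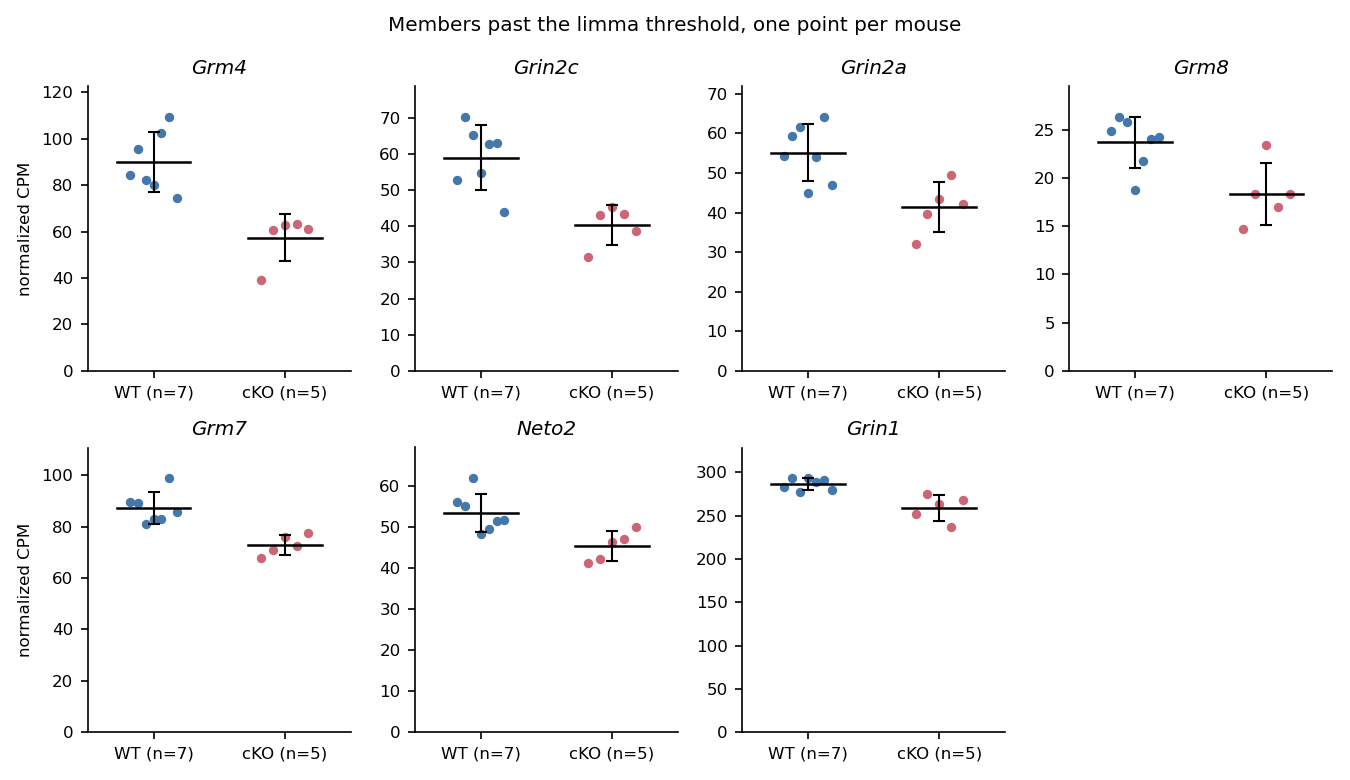
Normalized CPM of the 7 members past the threshold in each mouse, with the mean (line) and SD (bars), y axes from 0. The ranges do not overlap for Grm4, Grm7 and Grin1 and overlap for the other 4.

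Promoter sequences are shown for 3 of the genes that fell, and for Gabbr2, which was not called and has a match to the core of the CTCF motif, since CTCF is the DNA-binding partner at which cohesin halts. Each window is the 250 bases before the annotated start, 5′ to 3′, from the RefSeq promoter table of build GRCm38.p6, and capitals mark motif matches. RefSeq gave windows for 20 of the 30 members, 26 windows in all, among them 5 of the 7 genes that fell. Grm7 has a further annotated start nearby, whose window overlaps this one, holds the same GC box and is not shown. The Grin1 window holds no match and so no capitals.
Grin2c, chr11:115267244-115267493, minus strand: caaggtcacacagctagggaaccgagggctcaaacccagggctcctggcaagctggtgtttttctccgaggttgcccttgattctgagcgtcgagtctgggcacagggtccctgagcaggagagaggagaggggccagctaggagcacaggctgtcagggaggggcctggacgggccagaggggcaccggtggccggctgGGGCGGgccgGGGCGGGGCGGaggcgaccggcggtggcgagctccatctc
Grm7, chr6:110645262-110645511, plus strand: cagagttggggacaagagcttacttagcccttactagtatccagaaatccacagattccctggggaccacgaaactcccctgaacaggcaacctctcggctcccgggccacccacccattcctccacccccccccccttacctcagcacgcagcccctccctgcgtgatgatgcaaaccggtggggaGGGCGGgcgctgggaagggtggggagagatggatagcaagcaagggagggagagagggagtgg
Grin1, chr2:25319188-25319437, minus strand: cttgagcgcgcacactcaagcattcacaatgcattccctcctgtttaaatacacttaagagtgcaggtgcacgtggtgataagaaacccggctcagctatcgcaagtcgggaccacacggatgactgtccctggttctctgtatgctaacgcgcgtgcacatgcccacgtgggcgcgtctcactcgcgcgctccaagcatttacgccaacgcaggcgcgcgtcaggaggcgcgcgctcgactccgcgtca
Gabbr2, chr4:46991715-46991964, minus strand: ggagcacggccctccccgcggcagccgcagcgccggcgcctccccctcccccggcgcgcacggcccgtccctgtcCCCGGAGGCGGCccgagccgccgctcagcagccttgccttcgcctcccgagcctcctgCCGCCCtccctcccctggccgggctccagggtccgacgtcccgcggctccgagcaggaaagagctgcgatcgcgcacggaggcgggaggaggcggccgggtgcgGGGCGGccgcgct
The motifs searched on both strands were the GC box GGGCGG, the CTCF core, a stretch of the RE1 element and the palindromic NRF1 site, and matches of the same motif were allowed to overlap, as at the GC boxes of Grin2c. The CTCF core was in 0 of 9 windows of genes that fell and in 5 of 17 of the other members, and 7.17% of all 32851 windows of that length held it. The GC box was in 5 of the 9 and 8 of the 17, against 32.7% of all windows. The 9 windows came from 5 genes, and the single GC box of Grm7 was counted in both of its windows, so the windows are not independent. RE1 and NRF1 had 0 matches among members, and 0.0335% and 0.782% of all windows held them. Member windows were richer in G and C than most, with a median of 62.6% against 52.4%, and the GC box is itself made of G and C.

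No AMPA receptor gene passed the threshold. Gria1, whose subunit is added to synapses during potentiation, was at 405, 491 and 524 CPM (lowest, median and highest) in WT and at 365, 406, 410.3, 431 and 457 CPM in cKO mice. Of the WT mice 5 were above every cKO mouse, while WT 4 and WT 5 were not. The log2 difference was -0.21 (SE 0.07) with a limma adjusted p-value of 0.0534, and edgeR's quasi-likelihood test and DESeq2 on recovered reads placed Gria1 past the threshold. Gria2, the subunit that makes AMPA receptors nearly impermeable to calcium, differed by 0.03 (interval -0.10 to 0.15), Gria3 by -0.18 (interval -0.36 to -0.0081) and Gria4 by -0.0031 (interval -0.09 to 0.08). The direction of Gria2 flipped under quantile normalization (-0.0032). That of Gria4 flipped under median centring (0.011), which shifts all genes alike, and with the hypothalamus score as a covariate (0.0035). When 1 mouse was left out, the difference of Gria4 ran from -0.032 to 0.015, so its sign is not settled.

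The kainate receptor genes, Grid1 and the scaffold genes gave 0 calls among 8 tested, where 14.1% of all tested genes were called in either direction. These few genes were not tested against that share. Their unadjusted limma p-values were under 0.05 in 1 gene, Grik4, a high-affinity subunit, which had a log2 difference of 0.14 (SE 0.06, limma adjusted p-value 0.152). Grik4 was at 26.4, 31.8 and 36.1 CPM (lowest, median and highest) in WT and at 33.0, 33.4, 34.1, 36.3 and 37.4 CPM in cKO mice, so every cKO mouse was above the WT median but the ranges overlapped. After the GC and length correction Grik4 was higher past the threshold (0.20, limma adjusted p-value 0.0484), whereas with the thalamus score as a covariate it was at 0.02 (adjusted p-value 0.882). The other kainate genes lay between -0.16 (Grik1) and -0.04 (Grik5), and Grid1, whose delta receptor binds cerebellins, at -0.09. Grip1 and Grip2 differed by 0.0097 and -0.10, and Grip2 was at -0.35 with the thalamus score as a covariate (limma adjusted p-value 0.108), at -0.30 with both scores (0.0921) and at 0.025 after the GC and length correction (0.917).

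Of the kainate auxiliary genes Neto2 was called. It was at 48.2, 51.7 and 61.9 CPM (lowest, median and highest) in WT and at 41.2, 42.3, 46.4, 47.1 and 49.95 CPM in cKO mice, with cKO 14 the single mouse inside the WT range. It fell by 0.23 on the log2 scale (SE 0.06, limma adjusted p-value 0.0333). The call was lost without WT 1 (adjusted p-value 0.0699), WT 4 (0.0576), cKO 8 (0.0742) or cKO 9 (0.0815). Neto1 was not called, with a difference of 0.13 (interval -0.05 to 0.32) that turned to -0.075 with the thalamus score as a covariate, and whether the pair differed was not tested. The GABA-B genes were not called and had narrow intervals, Gabbr1 at -0.03 (interval -0.13 to 0.06) and Gabbr2 at -0.09 (interval -0.24 to 0.05).

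Ratios between the subunits within a library do not depend on how libraries were scaled, and 7 such ratios were compared as a description, without a test. They are ratios of CPM, not of CPM per kb, so they compare the groups and not the levels of the paired genes. Gria1 to Gria2 was the single one whose groups did not overlap, at 0.925 to 1.14 in WT and 0.791 to 0.906 in cKO libraries. Ratios of other gene pairs were not computed, so there is no background for that tally. Grin2a to Grin2b, which tracks NMDA receptor maturation, ran from 0.216 to 0.302 in WT and from 0.154 to 0.292 in cKO libraries. Grin2b to Grin1 ran from 0.646 to 0.997 and from 0.670 to 0.873, and Gabbr1 to Gabbr2 from 2.44 to 2.76 and from 2.46 to 2.87.

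The members did not vary alike from mouse to mouse. Among the 29 tested members the coefficient of variation within WT ran from 2.30% (Grin1) to 24.0% (Grin3b), with Grm2 and Grm3 next at 20.3% and 20.2%. WT 11 was the highest WT library for 12 of the 29 members and WT 6 the lowest for 8. Among cKO libraries cKO 14 was the highest for 10 members, and cKO 13 and cKO 8 were each the lowest for 10.

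Genes that work with these receptors formed a list of 51 genes. All but Cbln3, which was under the CPM minimum, could be tested (50). Past the limma threshold 7 fell and 1 rose (16.0% against 14.1% of all tested genes), and the median log2 difference was -0.10. The largest fall was that of Slc17a8, which encodes the third vesicular glutamate transporter, with a WT level of 8.73 ± 1.55 CPM (SD, n = 7) and a cKO level of 4.13 ± 0.793 CPM (SD, n = 5), a difference of -0.92 in log2 units (limma, SE 0.12, adjusted p-value 0.00181). Cbln1, a secreted ligand of delta receptors, fell from 143 ± 15.7 to 97.9 ± 14.9 CPM (-0.55, SE 0.10, limma adjusted p-value 0.00594), while Grid1 was not called. Of the postsynaptic scaffold genes Shank1 fell by 0.41 and Shank3 by 0.44, and Dlg1 rose by 0.20 (SE 0.04, limma adjusted p-value 0.00847). All cKO mice were above all WT mice in 1 partner, Dlg1 (3.52% of all tested genes). The reverse held for 4 partners, Slc17a8, Cbln1 and Shank1 among them (3.20% of all tested genes).

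Of 16 genes for AMPA receptor auxiliary and associated proteins 2 fell (12.5%, against 7.60% of all tested genes), Nptx2 by 0.54 and Shisa7 by 0.35 on the log2 scale, and the 6 Cacng genes and both cornichon genes were not called. Kctd12, an auxiliary subunit of GABA-B receptors, fell by 0.21 (SE 0.05, limma adjusted p-value 0.0197). Of 11 genes for glutamate supply, uptake and co-agonists 1 fell, Slc17a8 (9.09%, against the same 7.60%), and Slc17a6, the main vesicular transporter of hypothalamic and thalamic neurons, differed by -0.06 (SE 0.13). With the thalamus score as a covariate Slc17a8 and Cbln1 stayed past the threshold and the other 6 did not, Dlg1 being at 0.15 (limma adjusted p-value 0.0786), Nptx2 at -0.21 (0.381), Shank3 at -0.11 (0.493), Shank1 at -0.31 (0.122), Shisa7 at -0.35 (0.131) and Kctd12 at -0.22 (0.0730). With both the thalamus and the hypothalamus score Shisa7 (-0.42, limma adjusted p-value 0.0166), Nptx2 (-0.30, 0.0396) and Kctd12 (-0.25, 0.0294) were among 7 partners past the threshold, whereas Dlg1, Shank1 and Shank3 were not. After the correction for GC content and length Nptx2 (-0.50, limma adjusted p-value 0.0525), Shisa7 (-0.26, 0.0682) and Shank3 (-0.30, 0.145) were not past the threshold. The partner count was 2 with the thalamus score and 5 without WT 1, WT 7, cKO 9 or cKO 12.

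Because the thalamic markers moved with the groups, their values are given beside the members that fell. The thalamus score, the mean of log2(CPM + 1) over its 9 markers, was 5.47 to 6.61 in WT and 4.64 to 5.76 in cKO libraries. Within WT alone the relation with the score was computed on log2(CPM + 1) for the 7 members that fell, after their values had been seen. Grm4 rose with it across the 7 WT mice (Pearson's r 0.977, exact permutation p-value 0.00119, adjusted over 7 relations 0.00833; Spearman's rho 0.964, exact p-value 0.00278, adjusted 0.0194). Without WT 11 and WT 7, the mice farthest from the median score, r was 0.922 for Grm4, 0.981 for Grin2c, 0.809 for Grin2a, 0.521 for Neto2, 0.425 for Grm8, 0.363 for Grin1 and 0.150 for Grm7, so the order of the genes, and the sign for Neto2, rest in part on those mice. Grin2c had r 0.699 (exact p-value 0.0651, adjusted 0.185; rho 0.679, exact p-value 0.11) and Grin2a 0.688 (exact p-value 0.0794, adjusted 0.185; rho 0.714, exact p-value 0.0881). The other 4, Grin1, Grm7, Grm8 and Neto2, had r from -0.16 to 0.49 with exact p-values from 0.289 to 0.974. No relation was computed within the 5 cKO mice.

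**Figure D4:**
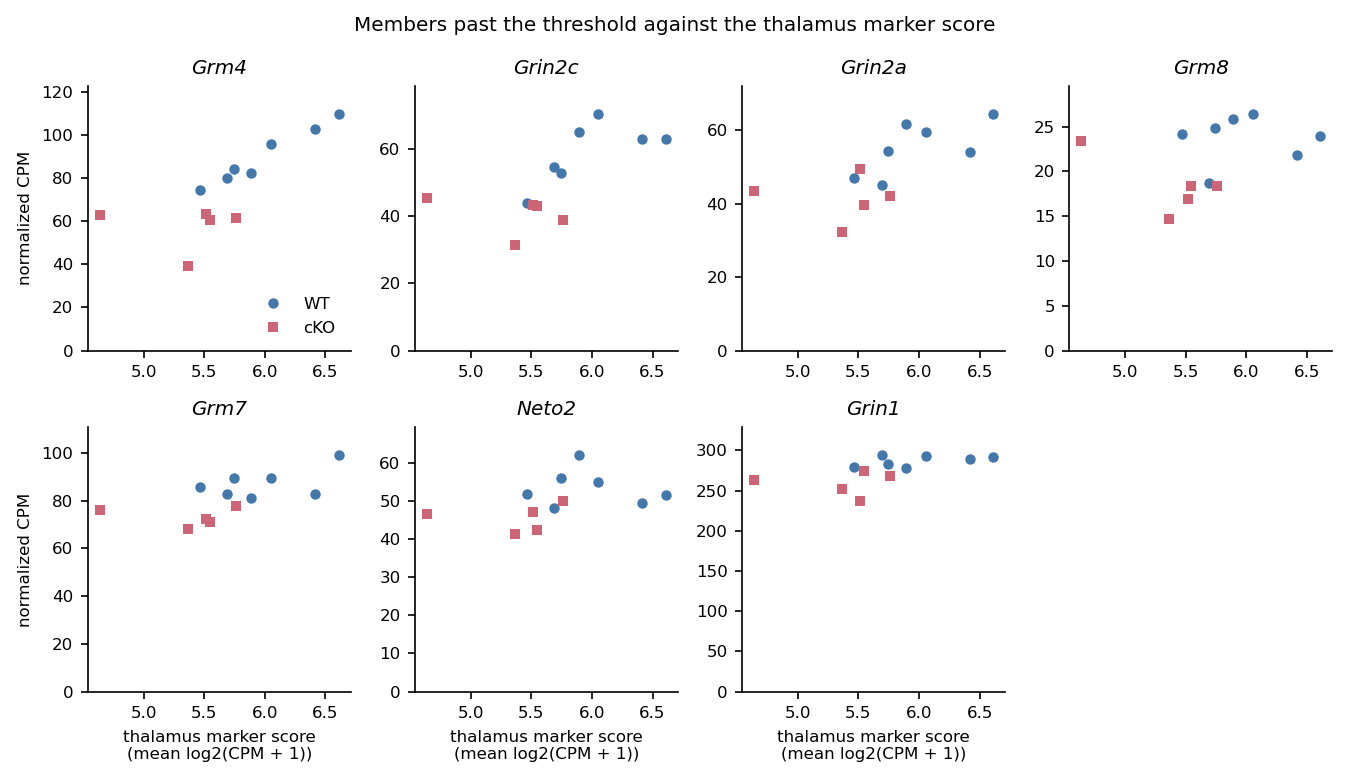
Normalized CPM of the 7 members that fell (y axes from 0) against the thalamus marker score of each library (x axis, mean log2(CPM + 1) over 9 markers; blue circles, WT; red squares, cKO). Grm4 rises along the score within WT (r 0.977 on log2(CPM + 1)), while Grm8 and Neto2 have r of 0.06 and -0.16 over all 7 WT mice and of 0.425 and 0.521 without WT 11 and WT 7.

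With the thalamus score as a covariate in limma, 0 of 29 members were past the threshold (3.44% of all genes were called lower and 1.99% higher). The limma p-value without adjustment was under 0.05 in 8 members (27.6%), all lower, where 12.9% of all genes were lower and 11.5% higher at that limit in the same fit. The 8 were the 7 that fell without the score, together with Grip2. In that fit Grm4 was at -0.48 (adjusted p-value 0.0679), Grm7 at -0.22 (0.0705), Grm8 at -0.44 (0.0628), Grin2c at -0.43 (0.0885) and Grin2a at -0.30 (0.176). Grm4 thereby went from -0.65 to -0.48, Grin2c from -0.53 to -0.43, Grin2a from -0.41 to -0.30 and Grm7 from -0.25 to -0.22, whereas Grm8 went from -0.36 to -0.44. Neto2 (-0.24, limma adjusted p-value 0.113) and Grin1 (-0.13, limma adjusted p-value 0.127) were near their values without the score, though neither was past the threshold. With the hypothalamus score as a covariate 8 members were past the threshold, the 7 and Gria1 (9.61% of all genes lower and 9.06% higher). With both scores 3 were, Grin2c at -0.35 (limma adjusted p-value 0.0397), Grm8 at -0.38 (0.0407) and Gria1 at -0.24 (0.0397), where 5.98% of all genes were called lower and 3.61% higher. In that fit Grm4 was at -0.43 (limma adjusted p-value 0.0570) and Grin2a at -0.22 (0.108). What part the tissue taken played in these falls was not tested.

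Across tested genes the log2 difference was related to GC content (Spearman's rho -0.216, a description over genes, which are not independent replicates). After the correction for GC content and length, 6 members were lower (5.70% of genes) and 2 higher (8.93% of genes) past the limma threshold. The 6 were the 7 without Grin1, and the 2 were Grik4 and Grin3a, the latter at 0.16 (limma adjusted p-value 0.0441).

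**Figure D5:**
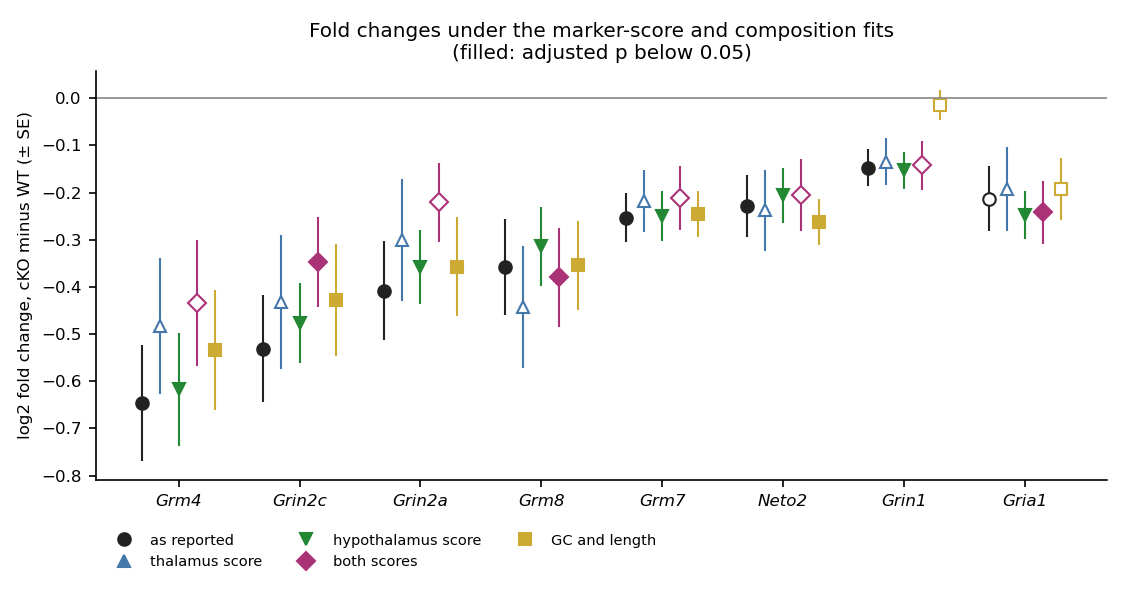
Log2 fold change (y axis, ± SE) of the 7 members that fell and of Gria1 under 5 fits, filled where the adjusted p-value is below 0.05. All values but that of Grin1 after the GC and length correction (-0.014) lie below -0.1, and no point is filled with the thalamus score.

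The authors' deposited table had 5 members lower at a false discovery rate under 0.05 (3.30% of its genes) and 0 higher (1.63%), and all 5 were among the 7. The authors' deposited table gives Grm4 a log2 fold change of -0.65 with a rate of 5.38e-05, Grin2c -0.54 with 0.000498, Grm7 -0.26 with 0.00496, Grin2a -0.41 with 0.00917 and Grm8 -0.37 with 0.0326. For Neto2 and Grin1 the rates in the authors' deposited table were 0.0510 and 0.0841. Counting recovered reads, edgeR placed 8 members lower (7.85% of genes) and 0 higher (5.81%), and DESeq2 likewise 8 (9.93%) and 0 (7.96%), in each case the 7 and Gria1.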

How the data were processed

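RNA sequencing of the hypothalamus of 7 mice labelled WT and 5 labelled cKO was analysed from 2 tables. The authors deposited normalized CPM for 32494 genes, plus the output of their own test (log2 fold change, log2 mean CPM, p-value and false discovery rate). The submitters' processing notes name STAR 2.7.9a, featureCounts, Subread, SAMtools, bcl2fastq and FastQC 0.11.9, while build, annotation and strand setting are not given in the sources used here. Groups and mouse numbers came from the sample titles. 100% of the deposited CPM values were whole multiples of one step per library (within 1e-04), which gave whole reads. The steps implied a scaling factor per library equal to the TMM (trimmed mean) factor that edgeR gave on the recovered reads. Within a group, the 31 pairs of libraries differed by a chi-square of 3.04 to 26.3 per degree of freedom, more than counting error alone gives. That cannot show that libraries came from separate mice, and each was counted as a sample by its mouse number. Nothing states that samples came from separate litters or extractions, so p-values measure the spread between these mice.

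The test was limma 3.58.1 (R 4.3.3) with eBayes and trend on log2(CPM + 1), for genes averaging 1 CPM or more, with Benjamini-Hochberg adjustment over all 15359 and a threshold of 0.05. Fold changes on this scale understate those of low genes. On counts simulated for this comparison limma recovered 181 of 195 genes changed by 1 log2 unit (92.8%) among 15287, with 9 false calls. The 7 members that fell differed by less, from -0.65 to -0.15, and recovery of differences of that size was not tested. edgeR 4.0.16 and DESeq2 1.42.0 were run on the recovered reads. The other alternatives were a pseudocount of 0.1, other filters and scalings, marker scores as covariates and leaving out each mouse. The GC and length correction (splines with 4 degrees of freedom, GENCODE M21, 94.5% of tested genes) was chosen after seeing the data. The symbol rule took in 32 genes, of which 2 are not reported here and are left out of the counts of members. Members and gene lists were chosen with earlier results of these data known. Genes named were all members, Smc3, partner genes past the threshold and markers that touch a result. Slc17a6, Cbln3 and the relations with the thalamus score were added after values were seen. Intervals are 95% limma intervals, and floors cover counting error only.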

Additional observations from a re-analysis of the deposited data

Results flagged for a closer look

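Among 58 groups of member values examined for a mouse far from the rest of its group, 4 had one, where chance gives 2.9. Grm4 was at 39.2 CPM in cKO 8, with the next lowest cKO mouse at 60.7 CPM. Grin2d was at 56.4 CPM in cKO 13, with the next at 82.7 CPM, and Grid1 was at 75.5 CPM in the same mouse, with the next at 92.9 CPM. Grin2b was at 290.2 CPM in WT 11, above the next WT mouse at 231 CPM. Without cKO 8, Grm4 was still past the limma threshold, as it was in each of the 12 fits that left out 1 mouse (log2 fold change -0.69 to -0.52).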

How the results depend on the processing

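Across the alternative fits of the 7 members that fell, 152 values kept the call, 30 lost it and 0 changed sign. No paired analysis was possible because the groups share no mouse number. Members that fell numbered 5 over all genes above 0 (where more genes were tested), 0 with the thalamus score, 3 with the thalamus and hypothalamus scores, and 4 to 8 when 1 mouse was left out. The number that rose was 2 after the GC and length correction and 0 when any mouse was left out. All tested genes past the threshold numbered 834 with the thalamus score and 1158 (without WT 1) to 2302 when 1 mouse was left out, against 2172, with 36.7% of calls higher with the thalamus score, 56.6% after median centring and 61.0% after the GC and length correction in place of 46.2%. Partner genes past the threshold numbered 5 over all genes above 0, 2 with the thalamus score and 5 to 8 when 1 mouse was left out (5 without WT 1, WT 7, cKO 9 or cKO 12). Smc3 stayed past the threshold (0.64 to 0.71 when 1 mouse was left out, 0.74 with the thalamus score).

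Some uncalled members changed sign. With the thalamus score Grik2 was at 0.0044, Grin2b at 0.075, Grm5 at 0.028, Neto1 at -0.075, Gabbr1 at 0.021 and Gabbr2 at 0.045, and with both scores Grik2 was at 0.0078, Grin2b at 0.054, Neto1 at -0.085, Gabbr1 at 0.024, Gabbr2 at 0.051 and Gria4 at 0.0092. With the hypothalamus score Gria4 was at 0.0035 and Grip1 at -0.027. Median centring, which shifts all genes alike, put Gria4 at 0.011, and quantile normalization put Gria2 at -0.0032 and Grin3b at 0.056. After the GC and length correction Grik3 was at 0.016, Grik5 at 0.067, Grin3b at 0.050, Grip2 at 0.025 and Gabbr1 at 0.043. When 1 mouse was left out Gria4 ran from -0.032 to 0.015, Grik3 from -0.14 to 0.011, Grik5 from -0.085 to 0.028, Grin3b from -0.11 to 0.015 and Grip1 from -0.044 to 0.050. What causes them was not tested. The minimum mean of 5 CPM gave no value for Grin3b. Depth limits Grin3b and Grm6 most.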

Other observations

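The makeup of families was also examined as shares of summed CPM per kb within each library, after the values had been seen and with no test. Shares were computed for all 30 members, and only those of Gria2, Grin3a and Grm7 did not overlap between the groups. Grid1 and Grm5, alone in their families here, are fixed at 100%. No such shares were computed for other genes, so no background stands beside this tally. Gria2 held 20.4% to 22.4% of the summed AMPA receptor CPM per kb in WT and 23.2% to 25.1% in cKO libraries, with no overlap. The size of a share depends on the exon lengths used, 15.548 kb for Gria2 and 6.043 kb for Gria1. The shares therefore compare the groups and do not rank the subunits. Grin3a, which encodes a glycine-binding NMDA subunit, held 11.6% to 13.5% of the summed NMDA receptor CPM per kb in WT and 14.4% to 15.7% in cKO libraries, also with no overlap. Grm7 held 42.1% to 49.4% of the group III total in WT and 49.98% to 58.9% in cKO libraries, although its own level fell. A share rises when other members of its family fall, so these values do not show a rise of the gene itself.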
